A study of Mus musculus with 4 samples.

Results

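D1-type nuclei were nuclei of striatal projection neurons that held RNA of the D1 dopamine receptor and none of the genes of the D2 type. They were chosen by unique molecular identifier (UMI) counts: at least 5 UMIs of Pde10a, at least 1 of Rgs9 and at least 1 of Drd1, with no UMI of Drd2, Adora2a or Gpr6, none of the vesicular glutamate transporters Slc17a7 or Slc17a6, and at most 1 UMI in sum of the glial and vascular genes Mog, Aqp4, Csf1r and Cldn5. In all, 553 of 78728 nuclei met the rule. Since these 12 genes chose the nuclei, their values are a description and were not tested.

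The data were single-nucleus RNA-seq counts from 4 libraries, which combine a region label (cortex or striatum) with an AAV label. AAV-VEGF-C was an AAV9 vector for full-length mouse VEGF-C, a growth factor of lymphatic vessels. AAV-CTRL was an AAV9 vector for a soluble piece of mouse VEGFR-3 that does not bind ligand, fused to an immunoglobulin tail, so that both groups carried a vector and its protein. Male C57BL/6J mice received the vector through the cisterna magna at 4 weeks and were 8 weeks old at collection, and tissue of 5 mice was pooled for each library. The cortex library and the striatum library of an AAV label came from the same mice, so that the 4 libraries stand for 2 pools. With 1 library per group, no test between AAV labels or between region labels was run, nuclei of 1 library were not counted as replicates, and the intervals given for these comparisons cover counting error only.

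Projection neurons are the main cells of the striatum, and they use GABA. Those of the direct pathway carry the D1 receptor, which raises cAMP, make substance P and dynorphin, and project to the output nuclei of the basal ganglia, whereas those of the indirect pathway carry the D2 dopamine and an adenosine receptor and make enkephalin. Some D1-type neurons are organised into patches within a surrounding matrix, and others, called eccentric, express a gene programme of their own.

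The libraries labelled cortex held more D1-type nuclei than those labelled striatum, against what the labels say of the region. Values by library are given below in a fixed order, first the cortex label with AAV-CTRL and with AAV-VEGF-C, then the striatum label with AAV-CTRL and with AAV-VEGF-C. Levels are in CPM, the UMIs of a gene per 1000000 UMIs summed over the D1-type nuclei of a library. There were 160, 223, 95 and 75 D1-type nuclei, or 0.932% (exact 95% interval 0.794 to 1.09), 1.09% (0.956 to 1.25), 0.400% (0.324 to 0.489) and 0.429% (0.338 to 0.538) of the nuclei in the library. The intervals of the cortex label did not overlap those of the striatum label, and within each region label the intervals of the AAV labels overlapped. D1-type nuclei were 46.1%, 46.6%, 52.8% and 47.8% of the nuclei that could be typed as D1 or D2, with the lowest bound at 39.7% and the highest at 60.2%. This share depended on the limit: with at least 2 UMIs of the type genes it was 31.3%, 35.5%, 45.0% and 30.5%, and D1-type nuclei were 0.414%, 0.614%, 0.211% and 0.166% of all nuclei. Nuclei were typed as D1 by Drd1 alone but as D2 by Drd2, Adora2a or Gpr6. The share is therefore not a measure of the balance of the types. A further 32.1%, 23.5%, 50.3% and 50.5% of the nuclei that met the remaining limits held no UMI of any type gene. Whether the tissue pieces, or the names of the libraries, account for this was not tested, and all results below are given by the label.

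**Figure D1:**
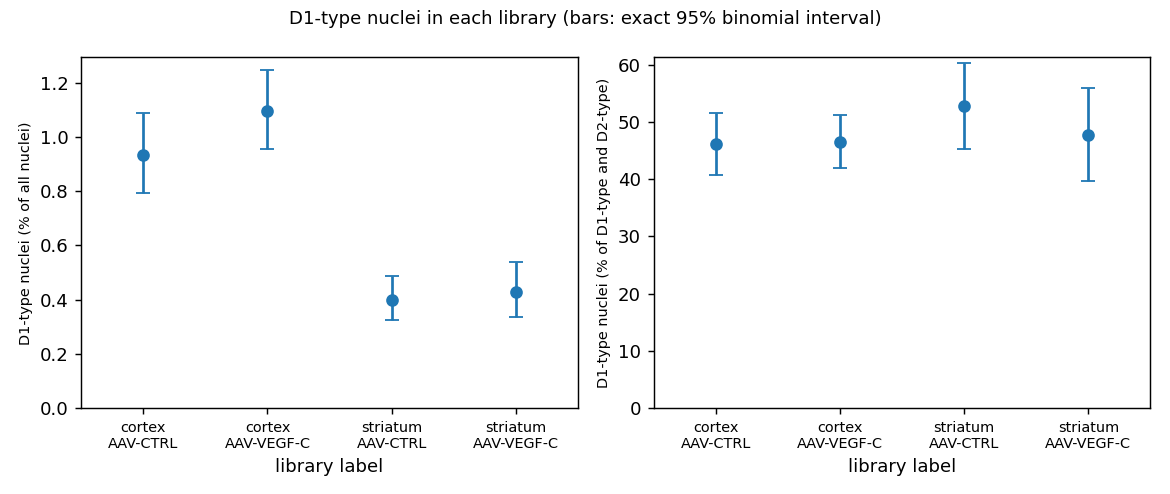
D1-type nuclei as percent of all nuclei (left) and as percent of D1-type and D2-type nuclei (right) in each of the 4 libraries, with exact 95% binomial intervals as bars. The share of all nuclei was 0.932% and 1.09% in the libraries labelled cortex and 0.400% and 0.429% in those labelled striatum, while the share of typed nuclei lay between 46.1% and 52.8%.

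The type rests on few UMIs. Drd1 was read once in 89, 98, 45 and 46 of the members, and its highest count in 1 nucleus was 6, 8, 5 and 9 UMIs. Members held a median of 5095.5, 5235, 5446 and 6328 UMIs, against 4596, 4772, 5444 and 6391.5 in D2-type nuclei and 2272 to 2873 in all nuclei. After every nucleus was thinned to 2000 UMIs, Drd1 was seen in 58.1%, 59.8%, 50.5% and 54.7% of the members and in 1.33% to 4.13% of oligodendrocyte nuclei, a gap that the rule itself fixed. Slc17a7, a gene of excitatory neurons, was seen after thinning in 52.1%, 48.1%, 7.88% and 6.26% of oligodendrocyte nuclei. Their shares below are therefore a comparison and not a floor. The median Pde10a count was 19, 19, 14 and 13 UMIs. Just outside the Pde10a limit, at 3 or 4 UMIs, lay 11, 15, 11 and 12 nuclei, and just inside it, at 5 or 6, lay 10, 11, 11 and 9. Meis2, a transcription factor of these neurons, was at 774, 1239, 923 and 716 CPM in the nuclei just outside and at 1122, 1184, 1014 and 1157 in those just inside. No barcode belonged to a member in both libraries of a pair. Each pair of libraries shared 76 to 118 barcodes over all nuclei, and 0 to 2 member barcodes of a library occurred in another library. The Scrublet doublet caller marked 5, 15, 3 and 1 members.

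RNA of other cell types was present in the members. The summed level of the 8 oligodendrocyte markers was 441, 377, 1004 and 752 CPM in D1-type nuclei, against 1490, 1483, 3498 and 3814 in the remaining nuclei, and none of the 8 was at 0. The 8 astrocyte markers summed to 717 to 1251, the 7 microglia markers to 94.8 to 117, the 7 endothelial markers to 27.4 to 60.3 and the 5 cholinergic markers to 17.8 to 25.7. In the remaining nuclei these sums were 1876 to 2286, 216 to 274, 444 to 598 and 19.2 to 46.8. Excitatory neuron markers summed to 366, 354, 217 and 226, with the 2 transporters of the rule at 0 in each library. Interneuron markers summed to 1148, 875, 1811 and 1456, most of it from Erbb4, at 538, 448, 1134 and 765, and Adarb2, at 411, 228, 384 and 507, a gene that is also known from eccentric projection neurons. In the remaining nuclei the excitatory markers summed to 1513, 1545, 622 and 654 and the interneuron markers to 1689, 1713, 2399 and 2254. Markers of thalamus and hypothalamus summed to 4.74, 10.8, 139 and 316 in D1-type nuclei, against 98.1, 99.0, 881 and 1038 in the remaining nuclei. In the striatum AAV-VEGF-C library 30 of 44 UMIs of Pmch, a peptide gene of that list, came from 1 nucleus. The part of this RNA in the comparisons below was not tested.

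The list of 10 direct-pathway genes that the rule did not use did not, as a sum, set these nuclei apart from all others. It summed to 2586, 2691, 2670 and 2967 CPM in D1-type nuclei and to 1168, 1130, 1893 and 1651 in D2-type nuclei. In the remaining nuclei it summed to 3321, 3269, 3610 and 3316. Tac1, which encodes the precursor of substance P, and Pdyn, which encodes that of dynorphin, are the peptide genes of the direct pathway. The window from 250 bases before to 50 bases after the RefSeq start of each is shown with that of Drd1, because these are the genes that name the type, on GRCm38.p6 and 5′ to 3′ on the gene's strand. Capitals mark TGACG or its reverse complement CGTCA, the core of the cAMP response element. The promoters are Drd1 at chr13:54055609-54055908 (minus strand), Tac1 at chr6:7554811-7555110 (plus strand) and Pdyn at chr2:129699889-129700188 (minus strand).
Drd1: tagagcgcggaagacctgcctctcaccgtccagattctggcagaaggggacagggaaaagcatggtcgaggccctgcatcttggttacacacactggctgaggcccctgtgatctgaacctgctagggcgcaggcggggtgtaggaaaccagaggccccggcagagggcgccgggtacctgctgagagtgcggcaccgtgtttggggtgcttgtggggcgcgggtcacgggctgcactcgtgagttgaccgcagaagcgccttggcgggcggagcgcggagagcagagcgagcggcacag
Tac1: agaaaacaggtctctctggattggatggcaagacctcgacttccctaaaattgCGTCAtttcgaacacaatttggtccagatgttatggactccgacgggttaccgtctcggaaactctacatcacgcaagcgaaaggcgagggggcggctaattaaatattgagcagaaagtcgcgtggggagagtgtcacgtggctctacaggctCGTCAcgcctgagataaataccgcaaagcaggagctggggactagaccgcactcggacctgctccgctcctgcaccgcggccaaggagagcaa
Pdyn: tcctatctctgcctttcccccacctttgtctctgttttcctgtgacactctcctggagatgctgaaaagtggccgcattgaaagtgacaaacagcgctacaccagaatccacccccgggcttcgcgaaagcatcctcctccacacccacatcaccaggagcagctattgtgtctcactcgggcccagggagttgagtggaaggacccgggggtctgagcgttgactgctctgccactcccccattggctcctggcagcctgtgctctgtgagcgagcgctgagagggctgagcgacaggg
The Tac1 window held 2 matches, neither overlapping the other, and the windows of Drd1 and Pdyn held none. Of 27025 such windows, the first listed for each gene, 21.0% held at least 1 match on either strand. A match is a description of these letters only.

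Tac1 was present in most members. It was seen in 65.0%, 73.5%, 74.7% and 69.3% of D1-type nuclei, and after thinning in 43.8%, 53.4%, 41.1% and 45.3%, against 6.90% to 8.68% of oligodendrocyte nuclei. Pdyn was seen in 23.1%, 43.9%, 47.4% and 44.0%, and after thinning in 10.6%, 26.0%, 22.1% and 24.0%, against 2.81% to 5.37%. The cortex AAV-CTRL library was the lowest for Pdyn. Penk, which encodes the precursor of enkephalin, was seen after thinning in 8.13%, 6.39%, 5.26% and 5.33% of members. In oligodendrocyte nuclei it was seen in 10.1%, 9.44%, 5.08% and 4.88%, so that its share in D1-type nuclei was near or below theirs. Chrm4, the muscarinic M4 receptor, a known gene of the direct pathway, had 8 UMIs over all members, which is too few to describe.

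The most abundant transcripts of the members were Malat1, Phactr1, Rbfox1, Meg3, Celf2, Nrxn3, Dlg2, Fgf14, Nlgn1 and Nrg1. Phactr1, a regulator of actin and phosphatase 1, was at 9959, 9690, 8211 and 6545 CPM. Foxp1, a transcription factor of projection neurons, was at 1212, 1253, 959 and 873, and Adcy5, the main striatal adenylyl cyclase, at 890, 935, 692 and 688. Both were lower in the libraries of the striatum label. Among glutamate receptors, Grm5 was at 3054, 2908, 3203 and 2797 and Grin2b at 1905, 1877, 1544 and 1695. Sv2c, a synaptic vesicle protein of the basal ganglia, was at 181, 189, 196 and 214, with little difference between libraries.

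D1-type nuclei were compared with D2-type nuclei, which met the same limits but held Drd2, Adora2a or Gpr6 and no Drd1, to see which genes besides those of the rule separate the types. UMIs were summed per library and type, and the sums were tested with edgeR's quasi-likelihood test with library as a block. With the block, the p-values measure the spread of the difference between types over these 4 libraries. The libraries of an AAV label share mice, so that they are not 4 independent pools. Of 8719 genes, 156 were higher in D1-type nuclei (1.79%) and 143 lower (1.64%) at an adjusted p under 0.05. Of the 10 direct-pathway genes, 7 were tested and all 7 were higher. Of the 10 indirect-pathway genes, 8 were tested and all 8 were lower. DESeq2, the alternative tool, called 4 of the 7 and 6 of the 8, and gave no adjusted p for 1 gene of each list. The medians of the log2 differences were 2.55 and -2.06, against -0.001 over all genes. These lists were made of genes already known for the types, and earlier results of these data were known when they were written. The filter on low counts also let a gene enter the test through the type in which it was high. The tallies and medians of both lists are therefore partly set by the filter, and they are a description.

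Pdyn had the largest log2 difference of the genes named by rule. It was at 90.03, 164, 158 and 185 CPM in D1-type nuclei and at 6.59, 7.63, 8.47 and 15.6 in D2-type nuclei, a log2 difference of 4.01 ± 0.20 (SE; edgeR adjusted p = 6.03e-19). Tac1 was at 308, 425, 308 and 389 against 42.8, 50.3, 63.5 and 111, a log2 difference of 2.55 ± 0.14 (edgeR adjusted p = 1.05e-17). The CPM of D1-type and D2-type libraries did not overlap for either gene, as for 336 of all 8719 genes (3.85%) in either direction. Ebf1, a transcription factor needed for direct-pathway neurons to develop, was at 242, 303, 158 and 183 against 22.0, 13.0, 23.3 and 15.6 (3.75 ± 0.17, edgeR adjusted p = 1.05e-19). After thinning it was seen in 35.0%, 40.2%, 14.7% and 24.0% of members and in 7.85%, 6.11%, 16.6% and 14.2% of oligodendrocyte nuclei. In the striatum AAV-CTRL library the share of members was the smaller, while the level was 158 CPM against 23.3 in D2-type nuclei. Foxp2, a transcription factor of the same family as Foxp1, was at 695, 561, 649 and 675 against 174, 169, 161 and 151 (1.95 ± 0.09, edgeR adjusted p = 1.63e-19). Slc35d3, which supports the transport of the D1 receptor to the cell surface, was at 24.9, 34.9, 20.9 and 29.1 against 0, 3.05, 4.24 and 1.74 (edgeR adjusted p = 4.57e-08), and DESeq2 gave it no adjusted p.

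Other genes that were higher in D1-type nuclei have roles in adhesion and signalling. Lingo2, a transmembrane protein with leucine-rich repeats, was at 1743, 1684, 2298 and 2252 against 287, 240.3, 873 and 730.0. Cntnap3, a contactin-associated adhesion protein, was at 116, 130.3, 158 and 118 against 18.7, 13.0, 12.7 and 12.2. Mdk, the growth factor midkine, was at 50.9, 55.6, 41.8 and 45.7 against 4.39, 4.58, 8.47 and 6.95. Their log2 differences were 2.10, 3.14 and 3.15. The rule also named Sntg2, a syntrophin, Asic4, an acid-sensing channel subunit, and Atp6ap1l, at log2 differences of 2.52, 2.50 and 1.65. Of the direct-pathway list, Zfp521 was higher in 3 of 4 libraries, at 80.6, 63.1, 45.6 and 76.9 against 11.0, 9.92, 50.8 and 48.7. Sfxn1, a mitochondrial carrier of the same list, was higher by 1.14. DESeq2 called neither, at an adjusted p of 0.71 for Zfp521 and 0.115 for Sfxn1.

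The genes that were lower in D1-type nuclei were led by Penk. It was at 49.8, 44.0, 36.1 and 27.0 CPM against 660, 783, 517 and 492 in D2-type nuclei, a log2 difference of -3.97 ± 0.12 (edgeR adjusted p = 2.54e-26). Grik3, a kainate receptor subunit, was at 15.4, 23.2, 30.4 and 39.5 against 267, 276, 229 and 217 (-3.33 ± 0.16, edgeR adjusted p = 4.19e-19). Every D2-type value was several times every D1-type value for both genes. Oprd1, the delta opioid receptor, at which enkephalin acts, was at 4.74, 7.47, 5.71 and 6.23 against 69.2, 60.3, 40.2 and 41.7. Chrm3, the muscarinic M3 receptor, was at 124, 66.4, 95.1 and 47.8 against 504, 409, 294 and 271. The rule also named Unc5d, a netrin receptor, at -2.19, Ptprm, a receptor phosphatase, at -2.14, Nell1, a secreted protein, Adk, which removes adenosine, at -1.79, and Fig4, a lipid phosphatase, at -1.66. Gm19410 met the rule too and is not described. Necab1, a calcium-binding protein, and Gucy1a1, a subunit of the nitric oxide receptor, both of the indirect-pathway list, differed by -1.52 and -1.11.

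**Figure D2:**
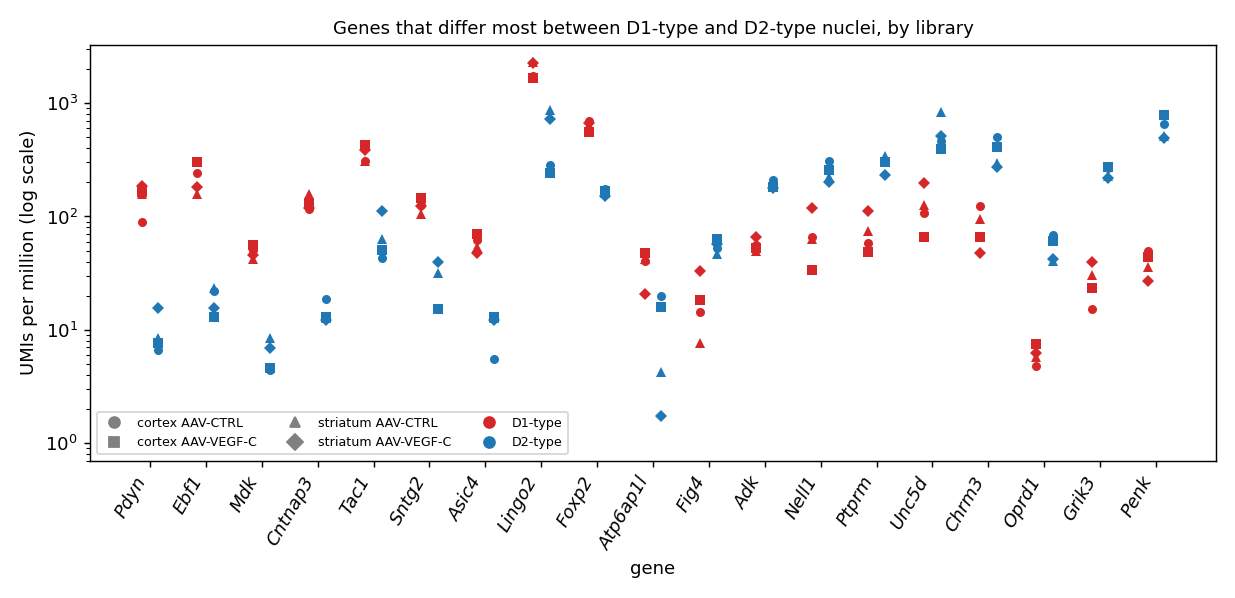
Level of each named gene in D1-type (red) and D2-type (blue) nuclei of each library, in CPM on a log axis, with the library given by the shape of the point. Pdyn lies between 90.03 and 185 in D1-type and between 6.59 and 15.6 in D2-type nuclei, and Penk between 27.0 and 49.8 against 492 to 783.

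Genes that both types are known to share were read against the 1.79% of all genes that were higher and the 1.64% that were lower. Of 25 genes of striatal projection neurons, 0 were higher and 2 were lower, among them Foxp1 (-0.28, edgeR adjusted p = 9.61e-03), with a median log2 difference of 0.03. At an unadjusted p under 0.05, 3 of the 25 were higher and 6 lower, and DESeq2 called 0 and 1, Foxp1 not among them (DESeq2 adjusted p = 0.0939). Ppp1r1b, which encodes DARPP-32, the phosphatase inhibitor that cAMP switches on, had a log2 difference of 0.05 ± 0.12. Of 39 genes of dopamine and cAMP signalling, 3 were lower by either tool, among them the cAMP phosphodiesterases Pde4b (-0.77) and Pde4d (-0.88). Of 14 GABA receptor genes, 0 passed, 0 were at an unadjusted p under 0.05 and DESeq2 called 0, and in the glutamate receptor list 1 of 19 was higher and 2 were lower, with 1 and 1 by DESeq2. Of 38 ion channel genes, 2 were higher and 7 lower, and DESeq2 called 2 and 3. Of 22 transcription factors, 3 were higher and 6 lower, and DESeq2 called 2 and 1.

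Some receptors of other modulators passed edgeR's test, but DESeq2 called none of those that were higher. Drd3, the D3 dopamine receptor, was at 21.3, 19.9, 62.8 and 43.6 in D1-type nuclei and at 9.88, 6.86, 21.2 and 22.6 in D2-type nuclei, higher in 4 of 4 libraries (1.29 ± 0.26, edgeR adjusted p = 1.23e-03, DESeq2 adjusted p = 0.136). Adra2c, an adrenergic receptor, was also higher by edgeR, by 1.29, and DESeq2 gave it no adjusted p. Chrm2 and Htr2c, a muscarinic and a serotonin receptor, were lower by the log2 differences -1.33 and -0.82, by both tools. Cnr1, the cannabinoid receptor, had a log2 difference of 0.10 ± 0.10 (edgeR adjusted p = 0.801). In the list of patch genes 3 of 10 were higher, namely Tac1, Pdyn and Sema5b, and 2 were lower, Kcnip1 and Nr4a1, but DESeq2 called only Tac1 and Pdyn of them. In the list of matrix genes 1 of 9 was higher and 1 lower, with 0 and 1 by DESeq2. Of the eccentric genes, Otof, an otoferlin calcium sensor, was higher by 0.72 and Adarb2, an RNA-editing family member, by 0.85, 2 of 4 tested, and DESeq2 called neither (adjusted p = 0.355 and 0.919). Wfs1 was the 1 of 12 ventral striatum genes that was higher (0 by DESeq2), and Reln and Kcnh1 were 2 of 8 dorsal genes (1 by DESeq2, Kcnh1). Foxp2 and Pbx3 were higher in the list of amygdala genes, 2 of 8. Of the VEGF list 0 of 5 and of the synaptic vesicle list 0 of 12 passed, with 1 and 2 at an unadjusted p under 0.05 and 0 by DESeq2. In the neurotrophin list Sorcs1 was higher (0.42) and Sorcs2 (-0.37) and Sorcs3 (-0.79) were lower, which are sorting receptors, and DESeq2 did not call Sorcs2 (adjusted p = 0.4). Of the markers of other cell types tested, 0 of 6 oligodendrocyte, 0 of 3 microglia and 0 of 6 excitatory genes passed in either direction, 0 of them at an unadjusted p under 0.05 or by DESeq2, 1 of 5 astrocyte genes was lower (0 by DESeq2), and of 6 interneuron genes 2 were higher and 1 lower (1 and 1 by DESeq2).

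The call count depended on the fit. DESeq2 called 54 genes higher and 54 lower, and without the library block edgeR called 20 and 25. With 1 library left out, 89 to 130 genes were higher and 85 to 127 lower, and both lowest counts came without the cortex AAV-CTRL library.

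AAV-VEGF-C was compared with AAV-CTRL in D1-type nuclei separately in each region label. Of 3746 genes with at least 100 UMIs over both cortex-label libraries, 112 were at least 1.5-fold higher with AAV-VEGF-C (2.99%) and 43 at least 1.5-fold lower (1.15%). Of 1929 genes in the striatum label, 58 were higher (3.01%) and 34 lower (1.76%). Among the 1914 genes measured in both, 3 were higher in both, 2 were lower in both and 2 went opposite ways. Scaled by DESeq2's size factors, the counts were 90 higher and 52 lower in the cortex label and 44 higher and 50 lower in the striatum label. The direct-pathway list had 1 of 6 measured genes past the fold in the cortex label, Pdyn, and 0 of 4 in the striatum label. Of the projection neuron list, 3 of 24 were past the fold upward in the cortex label and 0 downward, and in the striatum label 0 of 20 upward and 1 downward. The medians of the latter list were 0.05 and -0.04, beside 0.02 and -0.02 for all genes.

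Tac1 was somewhat higher with AAV-VEGF-C in both region labels, and Pdyn in the cortex label. Tac1 had a log2 ratio of 0.46 (95% counting interval 0.25 to 0.69) in the cortex label and 0.33 (0.02 to 0.65) in the striatum label. Pdyn had 0.86 (0.47 to 1.26) and 0.23 (-0.22 to 0.68), and the level in the cortex AAV-CTRL library was the one that stood low. In D2-type nuclei both were also higher with AAV-VEGF-C in each label, Tac1 at 42.8, 50.3, 63.5 and 111 and Pdyn at 6.59, 7.63, 8.47 and 15.6. Ppp1r1b was at 115, 188, 101 and 83.1, with log2 ratios of 0.71 (0.36 to 1.07) and -0.28 (-0.91 to 0.34). Rasd2, a small GTPase of the striatum, was at 84.1, 155, 41.8 and 58.2, with 0.88 (0.48 to 1.30) and 0.48 (-0.38 to 1.35), and in D2-type nuclei with 0.69 and 0.95. Pcp4, a calmodulin regulator, had log2 ratios of 0.64 (0.42 to 0.86) and 0.20 (-0.15 to 0.55). After thinning, Pcp4 was seen in 40.6%, 54.8%, 41.1% and 45.3% of members and in 48.6%, 61.7%, 48.2% and 59.7% of oligodendrocyte nuclei. The share of members was thus below that of oligodendrocyte nuclei in every library. Pde1a, a phosphodiesterase regulated by calcium, was at 203, 175, 139 and 355, with -0.21 (-0.51 to 0.09) in the cortex and 1.36 (0.95 to 1.77) in the striatum label.

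Of the 10 genes named by rule for a higher ratio in both labels, 5 were ribosomal. Rps21, a protein of the small ribosomal subunit, was at 124, 195, 126 and 241 CPM, Rps29 at 237, 388, 228 and 345, and Rpl30, of the large subunit, at 78.2, 120.4, 87.5 and 135. In each label the AAV-VEGF-C library was the higher. Their log2 ratios were 0.65 and 0.94, 0.71 and 0.60, and 0.62 and 0.63. Rps28 and Rpl6 were named by the same rule, with ratios of 0.55 and 0.71 and of 0.51 and 0.83. Cox8a, a subunit of cytochrome c oxidase, was at 226, 341, 209 and 297, and Ncdn, the neuronal protein neurochondrin, at 169, 226, 160 and 233. Nlgn3, a postsynaptic adhesion protein, Araf, a kinase, and Fkbp2, a chaperone, complete the 10.

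The genes of ribosomal proteins, a set of 82 genes chosen after those values were seen, were higher in other nuclei as well. Their share of all UMIs in D1-type nuclei was 0.646% and 0.843% in the cortex label, a log2 ratio of 0.38 (0.34 to 0.43), and 0.702% and 0.860% in the striatum label, 0.29 (0.23 to 0.36). The log2 ratio of the same share was 0.31 and 0.39 in D2-type nuclei, 0.28 and 0.32 in nuclei outside the striatal types and 0.27 and 0.38 in oligodendrocyte nuclei. Mitochondrial transcripts in D1-type nuclei were 0.474% and 0.733% of UMIs in the cortex label, and 0.570% and 0.698% in the striatum label. All of these differ between libraries of 1 pool each, and their part in the ratios was not tested.

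The rule also named genes that were lower in both labels. Sst, the somatostatin gene, was at 84.1, 50.6, 179 and 79.0, but 61 of its 94 UMIs in the striatum AAV-CTRL library came from 1 nucleus, and with at least 2 Drd1 UMIs per nucleus its log2 ratio in the striatum label turned from -1.18 to 0.22. Arntl, a core gene of the circadian clock, was at 159, 105, 129 and 66.5, and Mast4, a kinase, at 152, 83.8, 188 and 131. The log2 ratios of Arntl were -0.60 (-0.96 to -0.24) and -0.96 (-1.61 to -0.33), and those of Mast4 -0.85 and -0.52. Kcnn3, a potassium channel opened by calcium, was at 134, 103, 198 and 141, and Kcnip3, a channel-interacting protein, at 229, 175, 213 and 164. Lcor, Klhl3 and Fndc3b were named as well, and Gm28928 and Gm28376 are not described.

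**Figure D3:**
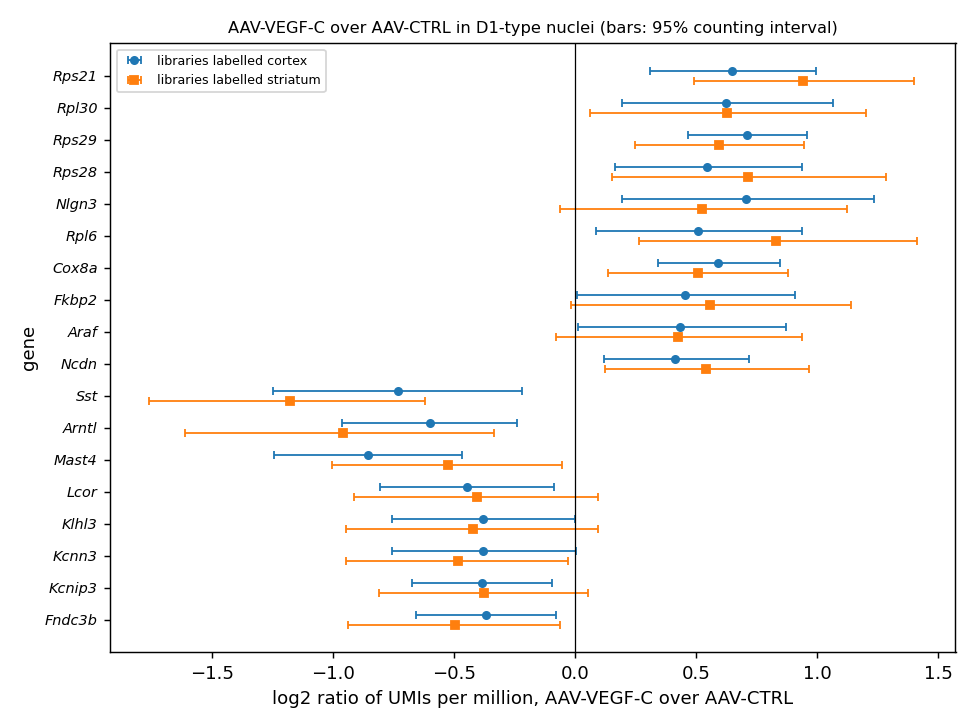
Log2 ratio of AAV-VEGF-C over AAV-CTRL in D1-type nuclei for the genes named by rule, in the libraries labelled cortex (circles) and striatum (squares), with 95% counting intervals as bars. The genes were picked for having the same sign in both, so that the agreement is the choice itself; Rps21 is at 0.65 and 0.94 and Arntl at -0.60 and -0.96.

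The ligand that AAV-VEGF-C carries and its receptors were hardly read in these nuclei. Vegfc had 10 UMIs over all 553 members, Flt4, which encodes VEGFR-3, had 5, and Kdr, which encodes VEGFR-2, had 1. Nrp2, a coreceptor, was at 33.2, 38.2, 95.1 and 110, in a share of members at or near that of oligodendrocyte nuclei, and Vegfa at 15.4, 14.9, 24.7 and 24.9. Neurotrophin receptors were read often, and their AAV ratios had intervals that held 0. Ntrk2, the BDNF receptor, was at 739, 705, 679 and 642, with log2 ratios of -0.07 (-0.22 to 0.08) and -0.08 (-0.31 to 0.14), and Ntrk3 was at 957, 952, 896 and 814. Bdnf itself was at 8.29, 14.1, 13.3 and 14.5.

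The libraries of the striatum label were compared with those of the cortex label, since the labels place the nuclei in different regions. This contrast had more genes past 1.5-fold than the AAV contrast. In AAV-CTRL, 172 of 2571 genes were higher (6.69%) and 140 lower (5.45%) with the striatum label, and in AAV-VEGF-C 245 of 3228 were higher (7.59%) and 238 lower (7.37%). Of the 2549 genes measured in both, 72 were higher in both, 77 lower in both and 3 went opposite ways. Scaled by DESeq2's size factors, which moved the median ratio by -0.09 and -0.11, 120 genes were higher and 198 lower in AAV-CTRL, and 163 higher and 354 lower in AAV-VEGF-C. The 2 comparisons share no library.

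Of the 12 genes listed for the ventral striatum, 4 had enough UMIs for a ratio between region labels. Zbtb20, Nnat and Synpr were past the fold upward in AAV-CTRL, and Nnat, Synpr and Wfs1 in AAV-VEGF-C, 3 of 4 each, where 6.69% and 7.59% of all genes were. Zbtb20, a transcription factor, was at 450.2, 547, 865 and 799.9, and Nnat, a lipoprotein of the brain, at 123, 128, 205 and 212. Both were higher in both libraries of the striatum label than in either of the cortex label. Synpr, a vesicle protein, was at 118, 123, 196 and 187, and Wfs1 at 72.3, 59.8, 78.0 and 135. After thinning, Nnat was seen in 23.1%, 23.3%, 33.7% and 32.0% of members and in 22.7%, 19.9%, 31.5% and 35.4% of oligodendrocyte nuclei. Zbtb20 was seen in a smaller share of members than of oligodendrocyte nuclei in every library. The source of the RNA of either gene in the members was not tested, and neither ratio is read as a change of expression. Synpr was above the share of oligodendrocyte nuclei with the striatum label only, at 33.7% and 30.7% of members against 17.0% and 15.5%. Wfs1 was above that share in every library. In the nuclei outside the striatal types the ratios were 0.65 and 1.07 for Nnat, 0.31 and 0.13 for Zbtb20 and -0.33 and -0.70 for Synpr. Of the rarer genes of the list, Crym, a thyroid-hormone-binding protein, was at 22.5, 23.2, 60.9 and 49.9, and after thinning in 5.00%, 4.11%, 11.6% and 10.7% of members against 7.16%, 5.67%, 2.43% and 1.68% of oligodendrocyte nuclei. Calb2, the calretinin gene, and Dlk1, a Notch-pathway protein, were seen with the striatum label in no larger a share of members than of oligodendrocyte nuclei, and their levels are not read. Drd3, whose gene marks the ventral striatum and its islands, was at 21.3, 19.9, 62.8 and 43.6, and after thinning in 3.13% to 9.33% of members against 0.138% to 0.491% of oligodendrocyte nuclei.

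Cnr1 and Reln of the dorsal striatum list were lower with the striatum label in both AAV labels, while the list as a whole was mixed in AAV-CTRL. Cnr1 was at 310.4, 328, 76.1 and 97.7, with a log2 ratio of -2.03 (-2.55 to -1.54) in AAV-CTRL and -1.75 (-2.22 to -1.31) in AAV-VEGF-C, and its ratio was -2.12 and -1.88 in D2-type nuclei and -0.91 and -1.13 in the nuclei outside the striatal types. After thinning, Cnr1 was seen in 35.6%, 40.6%, 13.7% and 20.0% of D1-type nuclei, against 11.98%, 10.6%, 8.55% and 6.51% of oligodendrocyte nuclei. Reln, the secreted protein reelin, was at 353, 401, 219 and 175 (-0.69 and -1.20), and Coch was at 50.9, 68.9, 24.7 and 16.6. Htr4, a serotonin receptor of the same list, went the other way, at 94.8, 76.4, 158 and 152. In the whole list 1 of 7 genes was past the fold upward and 2 downward in AAV-CTRL, and 1 and 4 in AAV-VEGF-C, where 5.45% and 7.37% of all genes were past it downward. The log2 ratio was above 0 for 4 of the 7 in AAV-CTRL and for 1 of the 7 in AAV-VEGF-C. The median log2 ratio of the list was 0.03 in AAV-CTRL and -0.59 in AAV-VEGF-C, beside 0.07 and 0.04 over all genes.

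**Figure D4:**
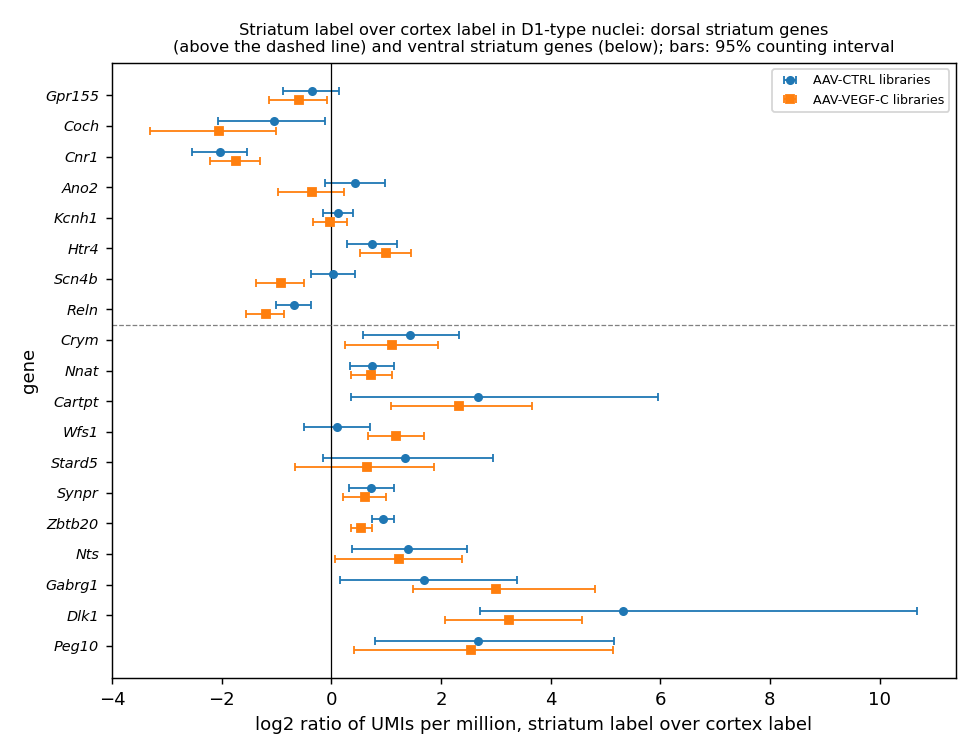
Log2 ratio of the striatum label over the cortex label in D1-type nuclei, for dorsal striatum genes (above the dashed line) and ventral striatum genes (below), in the AAV-CTRL (circles) and AAV-VEGF-C (squares) libraries, with 95% counting intervals as bars. Cnr1 is at -2.03 and -1.75, and Zbtb20 at 0.94 and 0.55; genes with a count of 0 in a library are left out.

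Genes of projection neurons tended to be lower with the striatum label, in the members and in other nuclei. Of the list, 0 of 23 were past the fold upward and 4 downward in AAV-CTRL, and 0 and 11 of 24 in AAV-VEGF-C, with median log2 ratios of -0.26 and -0.54 beside 0.07 and 0.04 over all genes. The list summed to 21075, 21435, 17669 and 15668 CPM in D1-type nuclei and to 22453, 23289, 17190 and 15728 in D2-type nuclei. In nuclei outside the striatal types it summed to 6783, 7087, 3234 and 3014, and in oligodendrocyte nuclei to 3728, 4027, 2778 and 2698. The pattern is thus not particular to D1-type nuclei. Actn2, an actinin of the postsynaptic density, was at 270.1, 234, 156 and 97.7. Rxrg, a retinoid receptor, was at 108, 92.1, 45.6 and 31.2. The immediate early gene Egr1, which neuronal activity induces, was at 139, 161, 70.4 and 56.1. After thinning it was seen in 23.8%, 29.2%, 13.7% and 13.3% of members and in 38.0%, 36.2%, 8.03% and 7.24% of oligodendrocyte nuclei. With the cortex label the share of members was the smaller. Ebf1 was lower in both AAV labels, with log2 ratios of -0.61 and -0.73, while Tac1 was at 0.00 (-0.29 to 0.29) and -0.13 (-0.38 to 0.12).

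Some of the remaining named genes had a like pattern in oligodendrocyte nuclei. Nrgn, a calmodulin-binding protein of excitatory neurons, was at 627, 709, 103 and 95.6 in the members and at 1274, 1407, 120 and 98.4 in oligodendrocyte nuclei, which do not make it. Cck, a cortical peptide gene, was at 131, 141, 45.6 and 33.2 in members, and at 430, 429, 101 and 110 in oligodendrocyte nuclei. Other genes did not move so in the other nuclei. March1, a ubiquitin ligase, was at 131, 97.9, 339 and 447, with ratios of 1.36 and 2.19 in D1-type, 1.26 and 1.33 in D2-type and 0.16 and 0.15 in other nuclei. Ptgds, Adam12, Nkain3, Gfra1, Plcxd3, Trpm3, Olfm3 and Dscam were also named upward, at ratios between 1.17 and 2.13, and Olfm1, Hpca, Gli3, Camk2n1 and Il1rapl2 downward, between -1.09 and -3.12. The ratio of Dscam in AAV-VEGF-C turned from 1.17 to -0.63 with at least 2 Drd1 UMIs per nucleus. Gm13974 is not described.

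Within a library, D1-type nuclei were not uniform. Nuclei that held Tac1 (104, 164, 71 and 52) had more Pdyn than those that did not, by log2 ratios of 1.51, 1.39, 1.11 and 3.09, and more Sema5b, a semaphorin of patches, by 0.91, 0.72, 2.26 and 2.41. Nuclei with Tshz1, a transcription factor of patch and eccentric neurons (36, 47, 33 and 17), had more Sema5b, by 1.72, 1.33, 1.82 and 2.01, and less Ebf1, by -1.34, -0.49, -0.55 and -1.96. The counting intervals were above 0 in 4 of 4 libraries for Sema5b in both subsets. Nuclei with Otof, the marker of eccentric neurons (29, 39, 20 and 23), had more Adarb2, by 1.25, 0.78, 0.74 and 0.42, and less Zbtb20, by -0.64, -0.70, -0.86 and -0.93. Nuclei with Drd3 (12, 18, 24 and 13) had less Cnr1, by -1.68, -0.70, -1.80 and -1.66, and nuclei with Cnr1 (90, 131, 23 and 30) had more Reln, by 0.82, 0.85, 0.63 and 1.80. Nuclei with Otof were also read more deeply, with medians of 5393, 6001, 6152 and 6602 UMIs against 5036, 5117.5, 5307 and 6234. These subsets are descriptions with no test, since they were formed on the same nuclei, and genes were picked after their values were seen.

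**Figure D5:**
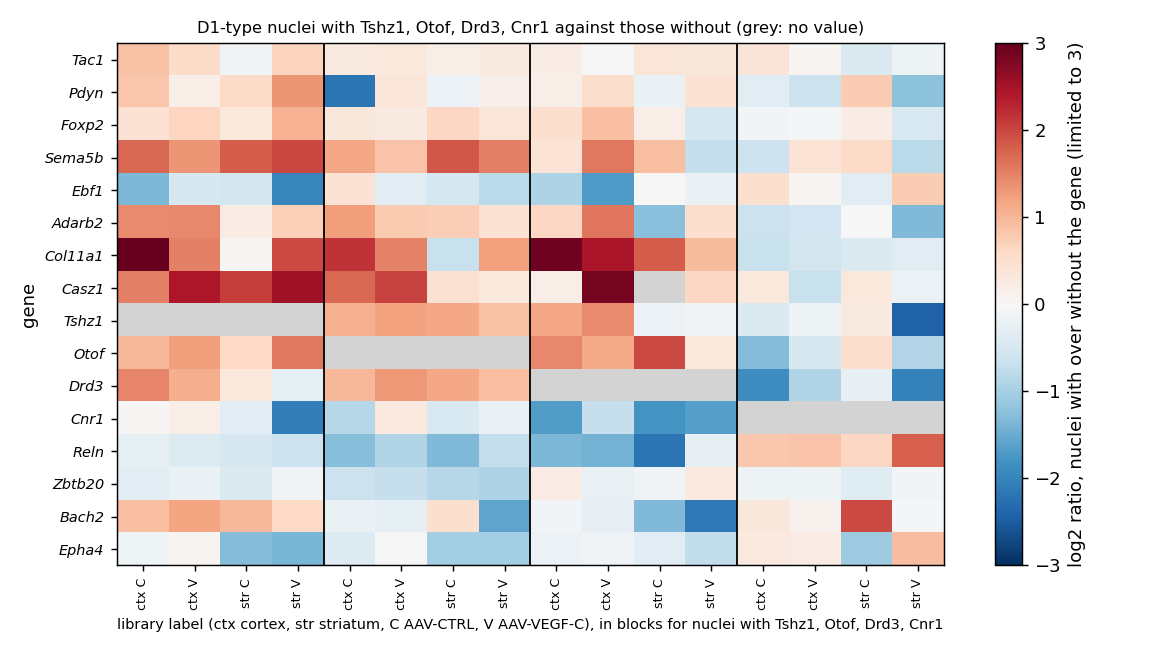
Log2 ratio of D1-type nuclei with at least 1 UMI of Tshz1, Otof, Drd3 or Cnr1 over those without, for 16 genes in each library (colour scale limited to 3, grey where no ratio was formed). Sema5b is higher in nuclei with Tshz1, by 1.72, 1.33, 1.82 and 2.01, and Cnr1 is lower in nuclei with Drd3.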

How the data were processed

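Nuclei of 4 libraries were profiled by droplet single-nucleus RNA-seq. The deposited files hold raw UMI counts per gene and nucleus, which the authors made with Cell Ranger (version 5.0.1 per the file headers, 5.1.1 per the submitters' processing notes, build mm10). The annotation and the handling of intronic reads are not given in the sources used here. The 4 libraries held 17168 to 23724 nuclei of at least 719 UMIs and 63165470 to 78332657 UMIs in all, and D1-type nuclei gave 481297 to 1204759 UMIs per library, which limits precision most in the striatum label.

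Members were selected on the counts as deposited. Doublets were not removed, and Scrublet at an expected rate of 8% (scanpy 1.11.5) served as an alternative. Levels are UMIs summed over the nuclei of a library, per 1000000 UMIs of that sum, and compare a gene between groups, not genes with one another. Shares of nuclei were also taken after thinning each nucleus to 2000 UMIs, beside oligodendrocyte nuclei (at least 5 UMIs of myelin genes in sum, under 3 of Pde10a); 0, 4, 0 and 0 members were too shallow. Ratios between 1 library and 1 library carry exact conditional binomial intervals at 95% and no test; a gene counted as past the fold at 1.5-fold with at least 100 UMIs over the pair. D1-type and D2-type sums were compared with edgeR 4.0.16 (quasi-likelihood, TMM scaling, filterByExpr, library as block, Benjamini-Hochberg over all genes tested), tested on simulated data, with DESeq2 1.42.0 as an alternative; the 12 genes of the rule were left out. No other value was tested. The study tested nuclei as replicates, which was not done here.

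The members and all gene lists were chosen with earlier results of these data known. Named genes were the 10 highest and 10 lowest differences between types (adjusted p under 0.05, the same sign in 4 of 4 libraries, mean of at least 20 CPM), and, for the AAV and region ratios, the 10 genes up and 10 down with the largest smaller ratio of the 2 pairs; genes with only a model name were not described. A count of 0 allows up to 3 counts. Intervals and floors cover counting error only. Promoter windows are from RefSeq (GRCm38.p6). Some genes of the lists are counted but not reported here.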

Additional observations from a re-analysis of the deposited data

Results flagged for a closer look

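A few genes had opposite signs in D1-type nuclei under the same contrast, and the differences were not tested. For AAV-VEGF-C over AAV-CTRL, Unc5d, a netrin receptor, was at 108, 66.4, 126 and 197 CPM, with log2 ratios of -0.70 in the cortex label and 0.65 in the striatum label, a difference of 1.35. Npas3, a transcription factor, was at 35.5, 78.0, 164 and 91.4, with 1.13 and -0.84, a difference of -1.97. For the striatum over the cortex label, Ldhb, a lactate dehydrogenase subunit, had log2 ratios of 0.59 in AAV-CTRL and -0.88 in AAV-VEGF-C, a difference of -1.47. Zfand5 had 0.63 and -0.61, a difference of -1.24, and Atad1, a mitochondrial ATPase, had 0.66 and -0.60 (-1.33 to 0.08), a difference of -1.25. Each of these values comes from 1 library per group.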

How the results depend on the processing

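The share of D1-type nuclei was 0.414%, 0.614%, 0.211% and 0.166% with at least 2 UMIs of the type genes, 0.299% and 0.315% in the striatum label with at least 10 Pde10a UMIs, and 1.26%, 0.273% and 0.160% after thinning in the cortex AAV-VEGF-C and both striatum libraries. D1-type nuclei were then 31.3%, 35.5%, 45.0% and 30.5% of typed nuclei with at least 2 UMIs, and 34.7%, 37.2% and 33.9% after thinning, the striatum AAV-CTRL library left out. For D1-type against D2-type nuclei DESeq2 called 54 higher and 54 lower, no library block 20 and 25, and leaving out 1 library 89 to 130 and 85 to 127. A robust dispersion fit, run first, gave 162 and 139 and was kept as an alternative after seeing the data. Of the alternative values for single genes between the types, 1078 stayed on the same side of the threshold with the same sign, 58 lost the call, 5 gained it and 0 reversed. For AAV-VEGF-C over AAV-CTRL in the cortex label, 303 genes were higher and 181 lower with at least 50 UMIs, 39 and 5 with at least 200, and 38 and 12 after thinning. In the striatum label these were 224 and 161, 13 and 7, and 7 and 9, and 29 were higher with at least 2 Drd1 UMIs. For the striatum over the cortex label in AAV-CTRL, 473 and 309 passed with at least 50 UMIs, 54 and 62 with at least 200, 73 and 73 with at least 2 Drd1 UMIs and 46 and 57 after thinning. In AAV-VEGF-C these were 602 and 458, 83 and 123, 109 higher, and 66 and 120, and DESeq2 size factors left 163 higher. Fewer UMIs or nuclei entered these settings, and a higher limit leaves fewer genes. With at least 2 Drd1 UMIs, Sst reversed to 0.22 (AAV, striatum label) and Dscam to -0.63 (region, AAV-VEGF-C); the cause was not tested. DESeq2 size factors shifted the median log2 ratio by -0.03 and -0.05 for the AAV pairs and -0.09 and -0.11 for the region pairs. No paired analysis was possible because each group holds 1 library, so that groups share fewer than 2 replicate numbers; a fit over the region pairs of each AAV label, which share mice, was not run. With 75 to 223 nuclei per library, genes of few UMIs could not be compared.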
